A study of Danio rerio with 6 samples.

Results

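The classic proto-oncogene transcription factors of T-cell acute lymphoblastic leukemia (T-ALL) were followed by name in zebrafish T-cell tumors driven by IRF4 and in control thymus: tal1, lyl1, lmo1, lmo2, hhex, tlx1, meis1a, meis1b, mef2ca and mef2cb. Of these 10 genes, 9 had a row among the 31901 genes of the deposited tables, 8 under the same spelling and hhex as HHEX (ENSDARG00000098231.2), whose identifier the reference table of gene names lists as hhex. No row carried the name lyl1, which was therefore not analysed here. Of the 9 genes with a row, 8 passed the filter on low counts and were tested, and tlx1 did not pass.

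The 6 libraries fell into 3 groups of 2. The lck-IRF4 tumors came from fish carrying human IRF4 and the red fluorescent protein mCherry under the promoter lck, with both copies of p53 intact. The study reports that transgenes under lck are expressed in normal T cells and B cells. The lck-IRF4;p53+/- tumors came from fish with the same transgenes that also carried 1 copy of a transactivation-dead p53 allele, and the lck-mCherry controls were normal thymus of fish carrying the marker alone. All 3 groups thus shared mCherry under lck, and no control carried the p53 mutation, so the comparison of lck-IRF4;p53+/- with lck-mCherry holds the transgene and the mutation together. The study's methods for bulk RNA state that tumor cells were sorted on mCherry fluorescence, in a passage on tumors given a drug or its vehicle. For quantitative PCR, the methods state that RNA came from sorted mCherry cells of each transgenic fish. The labels of these libraries do not mention sorting, and whether their control thymus was sorted is not given in the sources used here. The study describes stable lines bred from a specific founder. The lck-IRF4 tumors came from fish 10 months old, and the ages of the other fish behind these libraries are not given in the sources used here. The study states that the mCherry signal of control fish disappeared as the thymus regressed. Its control samples for single-cell RNA and for chromatin were 3 months old. Tumor and control libraries thus differ in tissue and possibly in age. Neither can be told apart from the transgene in any comparison with lck-mCherry. The labels do not say whether the 2 libraries of a group came from separate fish, so the p-values measure only the spread between these libraries, which may be technical.

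Without the 154 genes too abundant for recovery, the libraries held between 5196478 and 6904769 gene counts. At these totals 1 count was worth 0.128 to 0.185 CPM (counts scaled by the total of the genes tested and by edgeR's TMM factors). CPM is thus not a share of all reads, which would be lower. Pearson correlations of log2 CPM across genes, which are not independent replicates, were 0.908 within lck-IRF4, 0.917 within lck-IRF4;p53+/- and 0.923 within lck-mCherry, and between 0.806 and 0.888 for pairs of a tumor and a control library. Of the markers of T cells, lck and zap70 had authors' means over 4 libraries above 10000, the limit up to which counts per library were recovered, so their level in each library was not analysed here, and rag2, part of the recombinase of immature lymphocytes, was at 626 and 1210 CPM in lck-IRF4, 740 and 1631 CPM in lck-IRF4;p53+/- and 319 and 376 CPM in lck-mCherry. The human transgene is not a zebrafish gene and its level was not analysed here.

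In human T-ALL, genes such as TAL1, LYL1, LMO1, LMO2 and TLX1 are switched on in thymocytes by chromosome rearrangements or new enhancers, although they are normally silent or low once T cells are committed. TAL1 and LYL1 are basic helix-loop-helix factors that bind DNA together with E proteins, and LMO1 or LMO2 join that pair through LDB1 to GATA factors in 1 complex, which in normal blood formation serves stem cells, red cells and endothelium. MEF2C and HHEX are known from the most immature human and mouse T-cell leukemias, and MEIS1 is a homeodomain partner of HOXA and PBX proteins. Zebrafish keep duplicate copies of several of these genes, here meis1a with meis1b and mef2ca with mef2cb.

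Among the members, 1 change passed the test, beside a set of low tumor signals that did not. mef2ca was far lower in tumors than in control thymus, and the fall was called in lck-IRF4;p53+/- tumors. tal1, lmo1, hhex, meis1a and mef2cb were higher in all 4 tumor libraries than in both control libraries, at levels of at most 15.2 CPM, and none of them passed the test. Both libraries lay above both controls for 24.7% of all genes tested in lck-IRF4 and for 27.4% in lck-IRF4;p53+/-. These members passed the filter on low counts only through their tumor libraries. lmo2 was detected in every library, meis1b showed no common direction, and tlx1 had 1 count in all.

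**Figure D1:**
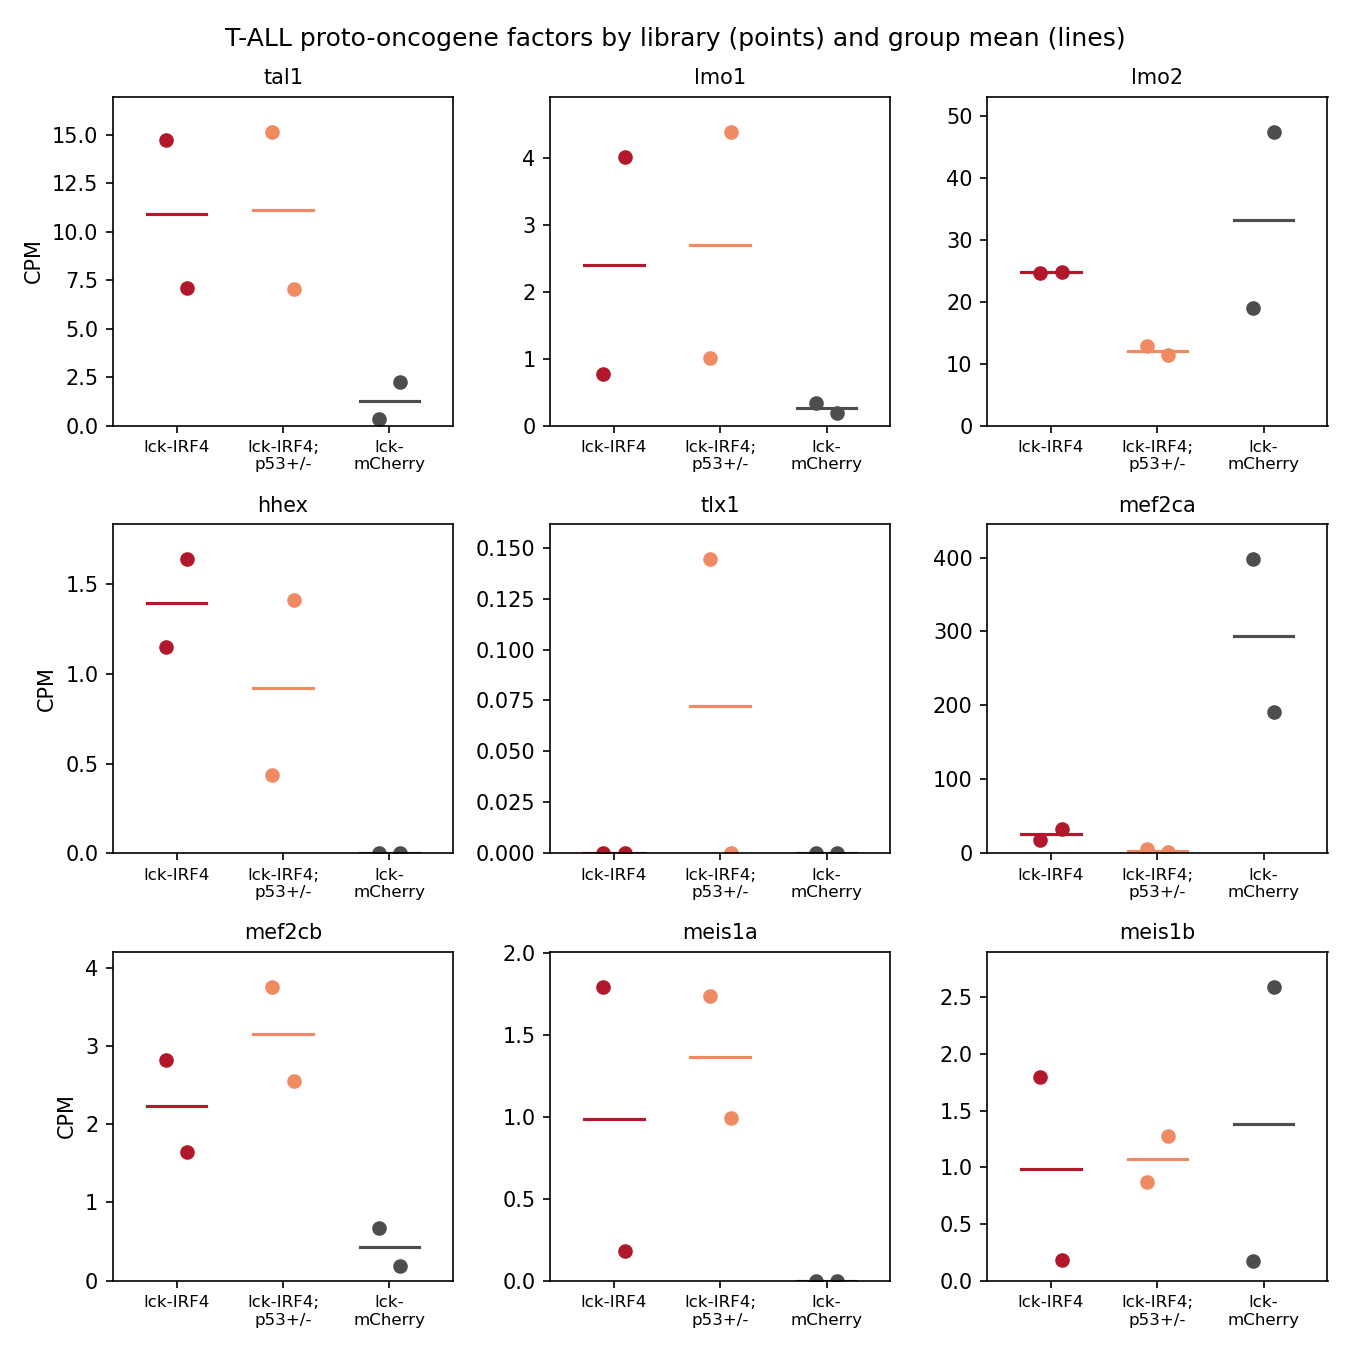
CPM (TMM-scaled, linear axes from 0, a separate scale in each panel) of the 9 members with a row. Points are the 2 libraries of each group and lines their mean. mef2ca lies between 190.3 and 398 CPM in lck-mCherry and at or below 32.8 CPM in all 4 tumor libraries, while tal1, lmo1, hhex, mef2cb and meis1a lie higher in all 4 tumor libraries than in both controls, and tlx1 is at 0 in 5 libraries.

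The first question was whether the core of the TAL1 and LMO complex was expressed in the tumors. tal1, the basic helix-loop-helix factor, had 115 and 39 counts in lck-IRF4 tumors, 105 and 50 counts in lck-IRF4;p53+/- tumors and 2 and 12 counts in lck-mCherry thymus. The levels were 14.7 and 7.11 CPM in lck-IRF4, 15.2 and 7.07 CPM in lck-IRF4;p53+/- and 0.337 and 2.22 CPM in lck-mCherry. Both tumor groups lay wholly above the control, and the tumor groups overlapped each other almost completely. The mean was 10.9 ± 5.38 CPM in lck-IRF4, 11.1 ± 5.72 CPM in lck-IRF4;p53+/- and 1.28 ± 1.33 CPM in lck-mCherry (SD, n = 2 each), or 8.53-fold and 8.69-fold higher in the tumors. The fitted log2 fold change was 3.09 ± 1.00 (SE) for lck-IRF4 and 3.11 ± 1.00 for lck-IRF4;p53+/- against the control, with edgeR adjusted p-values of 0.159 and 0.148, so the difference did not pass the threshold of 0.05. Its size depended on the controls: without lck-mCherry replicate 1 it was 2.27 for lck-IRF4 and 2.31 for lck-IRF4;p53+/-, and without lck-mCherry replicate 2 it was 4.93 and 4.94. It was called with DESeq2 (adjusted p 0.0225 in either comparison) and with no filter on low counts (0.0259 for lck-IRF4, 0.0232 for lck-IRF4;p53+/-). Over all alternatives the adjusted p ranged from 0.0225 to 0.498 for lck-IRF4 and from 0.0225 to 0.347 for lck-IRF4;p53+/-.

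lmo1, a LIM-only protein that bridges such complexes, was low in all libraries. It had 6 and 22 counts in lck-IRF4 (0.768 and 4.01 CPM), 7 and 31 counts in lck-IRF4;p53+/- (1.01 and 4.385 CPM) and 2 and 1 counts in lck-mCherry (0.337 and 0.185 CPM). Within each tumor group replicate 2 was several times replicate 1. Summed over libraries and scaled, lck-IRF4 was at 7.96 times the control (95% counting interval 2.46 to 40.9) and lck-IRF4;p53+/- at 10.3 times (3.26 to 52), intervals that cover counting error only and not the spread between libraries. With that spread included, the log2 fold changes of 3.07 ± 1.36 for lck-IRF4 and 3.27 ± 1.36 for lck-IRF4;p53+/- had edgeR adjusted p-values of 0.28 and 0.24. They rested on replicate 2 of either tumor group, without which they came to 1.47 for lck-IRF4 and 1.85 for lck-IRF4;p53+/-.

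lmo2, the LIM-only protein most often rearranged together with the T-cell receptor loci in human T-ALL, was detected in every library. Its level was 24.6 and 24.8 CPM in lck-IRF4 (192 and 136 counts), 12.9 and 11.3 CPM in lck-IRF4;p53+/- (89 and 80 counts) and 19.0 and 47.4 CPM in lck-mCherry (113 and 256 counts). The lck-IRF4 libraries lay between the controls, while both lck-IRF4;p53+/- libraries lay below every other library. The log2 fold change was -0.43 ± 0.56 for lck-IRF4 (edgeR adjusted p 0.756) and -1.46 ± 0.57 for lck-IRF4;p53+/- against lck-mCherry (0.221). For lck-IRF4;p53+/- against lck-IRF4 it was -1.03 ± 0.57 (0.908). None of these passed the test, and the sign for lck-IRF4 turned to 0.36 without lck-mCherry replicate 2.

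The same factors act in other blood cells, so markers of those cells were read in the same libraries. The study's methods for bulk RNA describe sorting on mCherry for tumors given a drug or its vehicle, and the labels of these libraries do not mention it. In bulk RNA, fewer cells of a type and less RNA per cell cannot be told apart. The 9 erythroid rows (hemoglobins, alas2, slc4a1a, klf1 and epor), of which slc4a1a, the band 3 protein of the red cell membrane, had 1 count in all, summed to 1651 and 1416 CPM in lck-IRF4, 1872 and 206 CPM in lck-IRF4;p53+/- and 288 and 639 CPM in lck-mCherry. The 3 thrombocyte markers summed to 8.83 and 7.66 CPM in lck-IRF4, 6.07 and 6.37 CPM in lck-IRF4;p53+/- and 1.68 and 2.96 CPM in lck-mCherry, with mpl, the thrombopoietin receptor, at 0 in every library. The erythroid and thrombocyte sums were thus higher in most tumor libraries, like tal1, though not every row was. hbba1 ENSDARG00000089087.7 and epor overlapped the controls in both tumor groups, and gp1bb made up most of the thrombocyte sum. In lck-IRF4;p53+/- replicate 2 the erythroid rows parted: hbaa1, both hbba1 rows and alas2 lay below both controls, whereas hbaa2 (10.75 CPM, against 3.53 and 6.11 CPM in lck-mCherry), hbba2 (24.5 CPM, against 13.97 and 18.7 CPM) and klf1 (4.10 CPM, against 2.52 and 2.22 CPM) lay above both, as tal1 did. The 7 endothelial markers summed to 12.7 and 17.3 CPM in lck-IRF4, 10.5 and 17.8 CPM in lck-IRF4;p53+/- and 8.25 and 11.1 CPM in lck-mCherry, with tie1 at 0 in every library. fli1a made up most of each sum. In lck-IRF4;p53+/-, pecam1 lay below both controls (0.867 and 0.566 CPM, against 1.01 and 2.22 CPM), whereas kdrl and cdh5 lay above both. The part of these cells in the tal1, lmo1 and lmo2 levels was not tested.

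**Figure D2:**
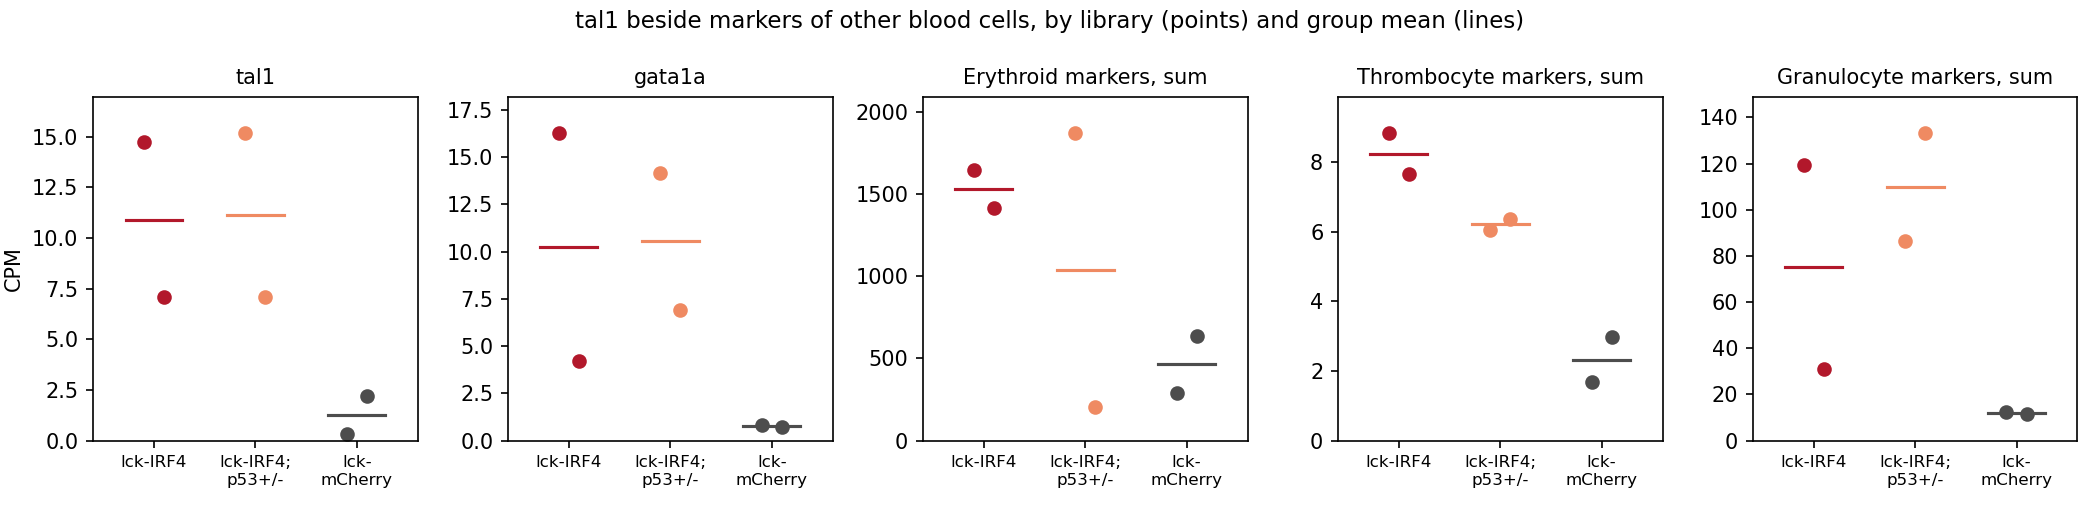
CPM (linear axes from 0, a separate scale in each panel) of tal1, of gata1a and of the summed erythroid, thrombocyte and granulocyte markers. Points are the 2 libraries of each group and lines their mean. tal1 and gata1a are high and low in the same tumor libraries, and the erythroid sum is lowest in 1 lck-IRF4;p53+/- library (206 CPM), in which hbaa2, hbba2 and klf1 were nevertheless above both controls.

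Of 16 listed partners of these factors, 10 were tested, 5 fell below the filter on low counts, and gata3 had a mean above the limit of recovery of 10000. With edgeR, 0 of the 10 were called in any of the 3 comparisons. Of all genes tested, 0.94% were called for lck-IRF4 and 2.43% for lck-IRF4;p53+/- against lck-mCherry, and 0.00712% between the tumor groups. For lck-IRF4 against lck-mCherry 2 partners had an unadjusted p under 0.05, and for lck-IRF4;p53+/- 1 had, beside 18.6% and 19.7% of all genes. DESeq2 called 1 partner, higher, in either comparison with lck-mCherry, beside 9.52% and 9.81% of all genes. The median log2 fold change of the 10 partners was -0.28 for lck-IRF4 and -0.04 for lck-IRF4;p53+/-, beside 0.00 and 0.03 over all genes tested. The E proteins tcf3a and tcf3b, which pair with TAL1 on DNA, were present in all libraries: tcf3a was at 22.5 and 22.4 CPM in lck-IRF4, 48.5 and 39.6 CPM in lck-IRF4;p53+/- and 50.2 and 8.52 CPM in lck-mCherry. The bridging factor ldb1a was at 69.1 and 58.2 CPM in lck-IRF4, 76.4 and 72.4 CPM in lck-IRF4;p53+/- and 113 and 39.1 CPM in lck-mCherry. For both genes the spread between the controls was wider than that within either tumor group. gata1a, the erythroid GATA factor of the complex, had 127 and 23 counts in lck-IRF4 (16.3 and 4.19 CPM), 98 and 49 counts in lck-IRF4;p53+/- (14.1 and 6.93 CPM) and 5 and 4 counts in lck-mCherry (0.841 and 0.741 CPM). Its log2 fold changes of 3.66 for lck-IRF4 (edgeR adjusted p 0.107) and 3.70 for lck-IRF4;p53+/- (0.0918) were not called by edgeR. For lck-IRF4;p53+/- against lck-mCherry, gata1a was the partner with an unadjusted edgeR p under 0.05 (0.00488). Like tal1, gata1a was highest in replicate 1 of either tumor group. runx1 and myb, which are required for blood stem cells and expressed in thymocytes, overlapped between tumors and control, with myb at 295 and 545 CPM in lck-IRF4, 400 and 234 CPM in lck-IRF4;p53+/- and 581 and 198 CPM in lck-mCherry.

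The homeobox members were scarce. hhex, a homeodomain factor of early progenitors that lies downstream of Lmo2 in mouse thymocytes, had 9 and 9 counts in lck-IRF4 (1.15 and 1.64 CPM), 3 and 10 counts in lck-IRF4;p53+/- (0.433 and 1.415 CPM) and 0 in both lck-mCherry libraries. The mean of hhex was 2.63 times a floor of 3 counts per control library in lck-IRF4 and 1.74 times in lck-IRF4;p53+/-. Such ratios take the tumor counts as exact, so they are not lower bounds of a difference. The 3 counts of lck-IRF4;p53+/- replicate 1, however, lay within the limit that a count of 0 allows in the controls (0.505 and 0.555 CPM), so the ratio for that group rests on replicate 2. The edgeR adjusted p-values were 0.156 and 0.181. meis1a had 14 and 1 counts in lck-IRF4 (1.79 and 0.182 CPM), 12 and 7 counts in lck-IRF4;p53+/- (1.73 and 0.990 CPM) and 0 in both lck-mCherry libraries. The mean of meis1a was 1.86 times the same floor in lck-IRF4 and 2.57 times in lck-IRF4;p53+/-. Its edgeR adjusted p-values were 0.228 and 0.188, and the single count of lck-IRF4 replicate 2 was likewise within that limit, so the ratio for that group rests on replicate 1.

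meis1b, the other copy, did not share this pattern. It had 14 and 1 counts in lck-IRF4 (1.79 and 0.182 CPM), 6 and 9 counts in lck-IRF4;p53+/- (0.867 and 1.27 CPM) and 1 and 14 counts in lck-mCherry (0.168 and 2.59 CPM). The control libraries spanned every tumor library, and the log2 fold changes of -0.42 ± 1.42 for lck-IRF4 and -0.35 ± 1.42 for lck-IRF4;p53+/- were smaller than their errors (edgeR adjusted p 0.912 and 0.921). Either changed sign when 1 control library was left out.

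tlx1, the homeobox gene activated in cortical T-ALL in humans, had 0 counts in both lck-IRF4 libraries, 1 and 0 counts in lck-IRF4;p53+/- and 0 in both lck-mCherry libraries. A count of 0 allows up to 0.384 and 0.547 CPM in the lck-IRF4 libraries and up to 0.505 and 0.555 CPM in the lck-mCherry libraries, so tlx1 was not detectable at this depth in either group.

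Progenitors and myeloid cells also use hhex and meis1a, and their markers were read beside them. The 4 granulocyte rows summed to 119 and 30.8 CPM in lck-IRF4, 86.2 and 133 CPM in lck-IRF4;p53+/- and 12.3 and 11.3 CPM in lck-mCherry, all tumor libraries above both controls. Of these, lyz (lysozyme) and cpa5 (a mast cell carboxypeptidase) were called higher in lck-IRF4;p53+/- against lck-mCherry, where 1.28% of all genes tested were. Their log2 fold changes were 6.37 (edgeR adjusted p 0.0427) and 5.08 (0.046). lyz had 38 and 88 counts in lck-IRF4;p53+/- but 0 and 1 counts in lck-mCherry, so the size of its change depends on the prior count of the fit. cpa5 had 213 and 606 counts in lck-IRF4;p53+/- and 5 and 14 counts in lck-mCherry. Both genes passed the filter on low counts only through their tumor libraries. Both calls were lost without lck-IRF4;p53+/- replicate 2 (adjusted p 0.131 for lyz and 0.109 for cpa5) and without either control. The defining neutrophil enzyme mpx was at 1.54 and 0.912 CPM in lck-IRF4, 0.578 and 1.84 CPM in lck-IRF4;p53+/- and 0 in both controls. mmp9, which made up most of the control sums, overlapped the controls in lck-IRF4. It was at 27.4 and 1.09 CPM in lck-IRF4, 49.4 and 33.1 CPM in lck-IRF4;p53+/- and 11.4 and 8.52 CPM in lck-mCherry. The 3 progenitor rows summed to 258 and 71.8 CPM in lck-IRF4, 485 and 226 CPM in lck-IRF4;p53+/- and 114 and 79.4 CPM in lck-mCherry. Most of each sum was cebpa, at 247 and 61.8 CPM in lck-IRF4, 458 and 201 CPM in lck-IRF4;p53+/- and 105 and 76.1 CPM in lck-mCherry. kita had 9 and 9 counts in lck-IRF4, 2 and 0 counts in lck-IRF4;p53+/- and 0 in both controls. The part of these cells in the hhex and meis1a counts was not tested.

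The MEF2 genes carried the largest difference among the members. mef2ca, a MADS-box factor, had 138 and 180 counts in lck-IRF4, 33 and 11 counts in lck-IRF4;p53+/- and 2364 and 1028 counts in lck-mCherry. These were 17.7 and 32.8 CPM in lck-IRF4, 4.77 and 1.56 CPM in lck-IRF4;p53+/- and 398 and 190.3 CPM in lck-mCherry. The groups did not overlap in any pair: lck-IRF4;p53+/- was lowest, lck-IRF4 came next and lck-mCherry was highest. The mean was 25.2 ± 10.7 CPM in lck-IRF4, 3.16 ± 2.27 CPM in lck-IRF4;p53+/- and 294 ± 147 CPM in lck-mCherry (SD, n = 2 each), 11.6-fold lower in lck-IRF4 and 93.0-fold lower in lck-IRF4;p53+/- than in the control. In the authors' tables, its mean of normalized counts was 966 over the lck-IRF4 and lck-mCherry libraries and 927 over the lck-IRF4;p53+/- and lck-mCherry libraries, rank 1819 and 1991 of 31901 genes from the highest.

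For lck-IRF4;p53+/- against lck-mCherry, the log2 fold change of mef2ca was -6.53 ± 0.77 and passed the test (edgeR adjusted p 0.0176). It was called in 9 of 11 alternatives, with adjusted p-values from 4.34e-18 to 0.0915, and was lost without lck-mCherry replicate 1 (log2 fold change -5.90, adjusted p 0.0883) and without lck-mCherry replicate 2 (-7.00, 0.0915), settings in which 0 genes in all were called. Its size also moved with single tumor libraries, to -7.55 when lck-IRF4;p53+/- replicate 1 was left out and to -5.96 when its replicate 2 was. For lck-IRF4 against lck-mCherry it was -3.54 ± 0.66, short of the threshold (edgeR adjusted p 0.0588) and called in 5 of 11 alternatives, with adjusted p-values from 5.72e-07 to 0.224. The difference between the tumor groups, lck-IRF4;p53+/- against lck-IRF4, was -2.99 ± 0.67 with an edgeR adjusted p of 0.298, and was called in 2 of 11 alternatives, by DESeq2 (0.00183) and with no filter on low counts (0.000182). A fall in lck-IRF4;p53+/- beyond that in lck-IRF4 thus did not hold up in the fit reported here.

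mef2cb, the duplicate of mef2ca, ran the other way at a low level. It had 22 and 9 counts in lck-IRF4 (2.82 and 1.64 CPM), 26 and 18 counts in lck-IRF4;p53+/- (3.755 and 2.55 CPM) and 4 and 1 counts in lck-mCherry (0.673 and 0.185 CPM). All 4 tumor libraries lay above both controls. The log2 fold changes were 2.32 ± 1.04 for lck-IRF4 (edgeR adjusted p 0.286) and 2.81 ± 1.04 for lck-IRF4;p53+/- (0.198), and neither was called. With each library left out in turn they ranged from 1.69 to 3.45 for lck-IRF4 and from 2.16 to 3.96 for lck-IRF4;p53+/-.

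Of the other MEF2 genes, which stood in a list of 30 further T-ALL factors and their relatives, mef2b was the gene of that list that passed the test. MEF2B is best known in humans as a factor of germinal center B cells. It had 2939 and 1973 counts in lck-IRF4 (376 and 360 CPM), 1465 and 7500 counts in lck-IRF4;p53+/- (212 and 1061 CPM) and 123 and 50 counts in lck-mCherry (20.7 and 9.26 CPM). All tumor libraries lay above both controls, 24.6-fold in the mean for lck-IRF4 and 42.5-fold for lck-IRF4;p53+/-. The log2 fold change was 5.41 ± 0.86 for lck-IRF4;p53+/- against lck-mCherry (edgeR adjusted p 0.0294), lost when either control library was left out (adjusted p 0.141 without lck-mCherry replicate 1, 0.159 without replicate 2). It came to 3.80 when lck-IRF4;p53+/- replicate 2, its highest library, was left out, and to 6.14 when replicate 1 was. For lck-IRF4 it was 4.62 ± 0.83 and missed the threshold (0.055), with a call in 5 of 11 alternatives. mef2d, by contrast, was at 110 and 203.5 CPM in lck-IRF4, 101 and 202 CPM in lck-IRF4;p53+/- and 141 and 179 CPM in lck-mCherry, so that the groups overlapped.

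**Figure D3:**
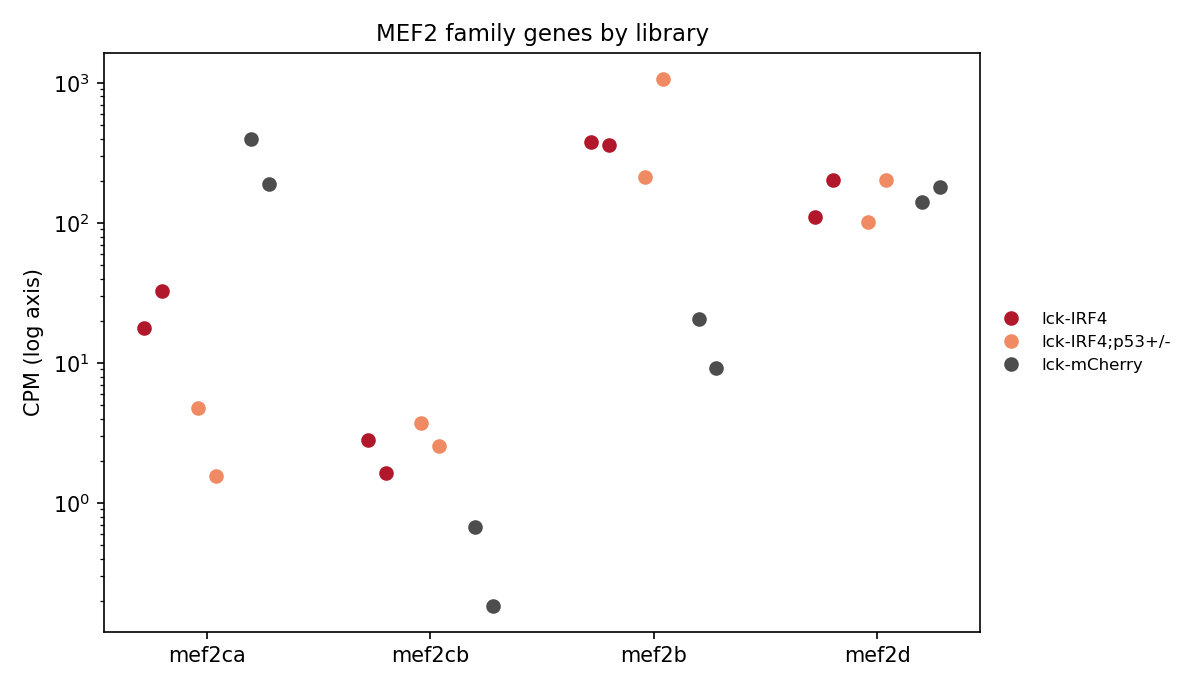
CPM (log axis) of mef2ca, mef2cb, mef2b and mef2d in the 2 libraries of lck-IRF4, lck-IRF4;p53+/- and lck-mCherry (points). mef2ca lies lower and mef2b and mef2cb lie higher in all 4 tumor libraries than in both controls, while for mef2d the groups overlap between 101 and 203.5 CPM.

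Markers of lymphoid cells moved in the same libraries. Of the 6 T-cell markers tested, 2 were called lower in lck-IRF4;p53+/- against lck-mCherry, both of them co-receptors of maturing thymocytes. Of all genes tested, 1.15% were called lower in that comparison. cd4-1 was at 1.66 and 2.37 CPM in lck-IRF4, 0.144 and 0.707 CPM in lck-IRF4;p53+/- and 41.2 and 14.8 CPM in lck-mCherry, a log2 fold change of -5.97 for lck-IRF4;p53+/- (edgeR adjusted p 0.0345). cd8a was at 324 and 400 CPM in lck-IRF4, 188 and 65.4 CPM in lck-IRF4;p53+/- and 1467 and 970 CPM in lck-mCherry, a log2 fold change of -3.27 for lck-IRF4;p53+/- (0.0371). Both had the order of groups seen for mef2ca. Of the other T-cell markers tested, rag2 went the other way, with all tumor libraries above both controls. Its log2 fold changes against lck-mCherry were 1.40 for lck-IRF4 (edgeR adjusted p 0.191) and 1.77 for lck-IRF4;p53+/- (0.116). rag1, tcf7 and il2rga overlapped the control in either tumor group. DESeq2 called 2 of the T-cell markers lower and 1 higher for lck-IRF4;p53+/- against lck-mCherry. The 3 B-cell rows summed to 46.2 and 36.3 CPM in lck-IRF4, 12.3 and 2.83 CPM in lck-IRF4;p53+/- and 10.1 and 16.1 CPM in lck-mCherry. Of these, pax5, the factor that defines B cells, was at 2.82 and 0.912 CPM in lck-IRF4, 0 and 0.141 CPM in lck-IRF4;p53+/- and 0.168 and 0 CPM in lck-mCherry. The 10 macrophage rows summed to 843 and 677 CPM in lck-IRF4, 524 and 912 CPM in lck-IRF4;p53+/- and 569 and 1048 CPM in lck-mCherry, a sum made up largely of cd74a, the invariant chain of MHC class II, which B cells also express. Without cd74a, a split made after the values were seen, the other 9 rows summed to 67.7 and 53.2 CPM in lck-IRF4, 200 and 539 CPM in lck-IRF4;p53+/- and 26.8 and 48.7 CPM in lck-mCherry, all tumor libraries above both controls. Not every row went with that sum. mpeg1.1 overlapped the controls in lck-IRF4;p53+/- (7.80 and 2.55 CPM, against 6.395 and 2.41 CPM), as csf1ra and marco did in lck-IRF4. The mfap4 gene ENSDARG00000090557.5 was at 1.79 and 0.729 CPM in lck-IRF4, below both controls (3.87 and 3.15 CPM). The mfap4 gene ENSDARG00000038681.8 was at 7.17 and 7.48 CPM in lck-IRF4, 7.80 and 3.11 CPM in lck-IRF4;p53+/- and 0.673 and 1.11 CPM in lck-mCherry. The scavenger receptor marco was called higher in lck-IRF4;p53+/- against lck-mCherry (log2 fold change 3.68, edgeR adjusted p 0.047). Like every call, those of these markers were lost when either control library was left out. Tumor libraries decided them too. The call of cd4-1 was lost without either lck-IRF4;p53+/- library (adjusted p 0.0668 without replicate 1, 0.0665 without replicate 2). Those of cd8a (0.0853) and marco (0.143) were lost without lck-IRF4;p53+/- replicate 2, and that of marco also without lck-IRF4 replicate 2 (0.0528). The part of T-cell stage, B cells and macrophages in the mef2ca and mef2b levels was not tested.

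The genes whose log2 CPM followed mef2ca most closely over the 6 libraries were prkcq (Pearson r 0.997), ogt.1 (0.995) and BX324123.2 (0.994), a description over libraries that share their groups. prkcq, a protein kinase C, was at 45.1 and 52.5 CPM in lck-IRF4, 30.2 and 20.5 CPM in lck-IRF4;p53+/- and 126 and 110.5 CPM in lck-mCherry. ogt.1, an O-GlcNAc transferase, kept the order of groups with a smaller difference, at 106 and 108 CPM in lck-IRF4, 91.9 and 82.9 CPM in lck-IRF4;p53+/- and 139 and 135 CPM in lck-mCherry.

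Of the 30 further T-ALL factors, 29 had a row, 6 of which (lmo3, tlx3b, hoxa11a, meis2a, meis2b and nkx2.2a) were at 0 in all 6 libraries, and 9 were tested. With edgeR, 0 of the 9 were called for lck-IRF4 against lck-mCherry (1 had an unadjusted p under 0.05, and DESeq2 called 1), and 1, mef2b, was called higher for lck-IRF4;p53+/- (3 had an unadjusted p under 0.05, and DESeq2 called 1). Between the tumor groups, 0 of the 9 were called by edgeR or DESeq2 and 0 had an unadjusted p under 0.05. Of all genes tested, edgeR called 0.94% for lck-IRF4 and 2.43% for lck-IRF4;p53+/- against lck-mCherry. An unadjusted p under 0.05 was seen for 18.6% and 19.7% of all genes, and DESeq2 called 9.52% and 9.81%. Between the tumor groups these shares were 0.00712%, 6.76% and 1.94%. The median log2 fold change of the 9 was 0.08 for lck-IRF4 and -0.08 for lck-IRF4;p53+/-. tal2, the close relative of tal1, was among those below the filter, with 8 and 6 counts in lck-IRF4, 10 and 6 counts in lck-IRF4;p53+/- and 0 in both controls. The HOXA genes, partners of MEIS1 in leukemia, were at most at 13 counts in any library, hoxa13a in lck-IRF4 replicate 1.

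Set against all genes, the members' counts read as follows. For lck-IRF4 against lck-mCherry, 0 of the 8 tested members were called, where 0.94% of all 14046 genes tested were (0.698% higher and 0.242% lower), 4 members had an unadjusted p under 0.05, as had 18.6% of all genes, and DESeq2, which gave hhex and meis1a no adjusted p, called 2, tal1 and mef2ca, beside 9.52% of all genes. For lck-IRF4;p53+/- against lck-mCherry, 1 of 8 was called, mef2ca, where 2.43% of all genes were (1.28% higher and 1.15% lower), 7 members had an unadjusted p under 0.05, as had 19.7% of all genes, and DESeq2 again called tal1 and mef2ca, beside 9.81% of all genes. For lck-IRF4;p53+/- against lck-IRF4, 0 of 8 were called, where 0.00712% of all genes were, 1 had an unadjusted p under 0.05, as had 6.76% of all genes, and DESeq2, again with no adjusted p for hhex and meis1a, called 1, mef2ca, beside 1.94% of all genes.

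Both lck-IRF4 libraries lay above both controls for 5 of the 8 members, as for 24.7% of all genes, and below both for 1, as for 22.2%. Both lck-IRF4;p53+/- libraries lay above both controls for 5, as for 27.4% of all genes, and below both for 2, mef2ca and lmo2, as for 22.5%. Both lck-IRF4;p53+/- libraries lay above both lck-IRF4 libraries for 0 members, as for 19.5% of all genes, and below both for 2, again mef2ca and lmo2, as for 19.4%. The 5 members above both controls (tal1, lmo1, hhex, mef2cb and meis1a) could pass the filter only through their tumor libraries. Their control counts alone were too low for it. Both tumor groups were also set against the same 2 controls. These counts, and the counts of members with an unadjusted p under 0.05, are therefore a description and not a test.

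**Figure D4:**
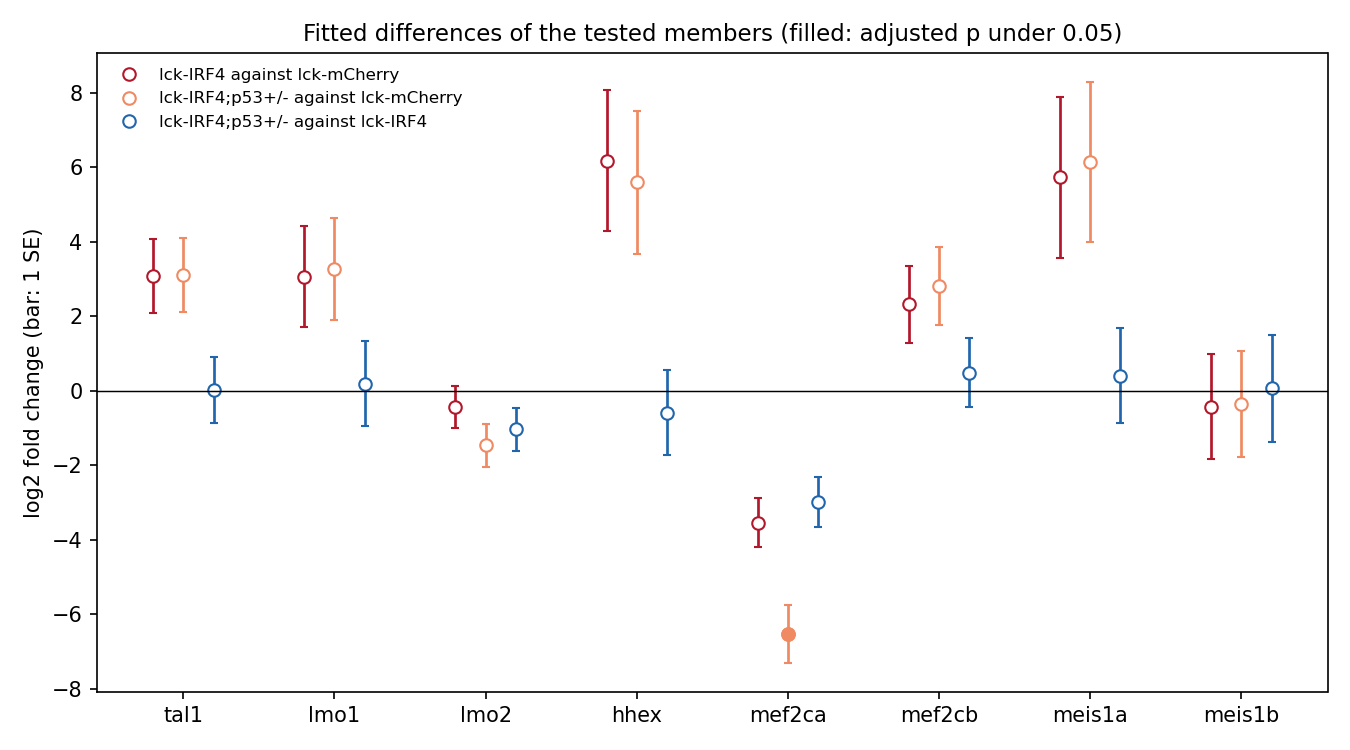
Fitted log2 fold changes (edgeR, bars 1 SE) of the 8 tested members for lck-IRF4 and lck-IRF4;p53+/- against lck-mCherry and for lck-IRF4;p53+/- against lck-IRF4. The filled point, mef2ca at -6.53 in lck-IRF4;p53+/- against lck-mCherry, is the call at an adjusted p under 0.05. The values of hhex and meis1a against the control depend on the prior count of the fit, since both controls are at 0.

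Between the tumor groups the members other than mef2ca and lmo2 were close together. The log2 fold changes of lck-IRF4;p53+/- against lck-IRF4 were 0.02 ± 0.88 for tal1, 0.19 ± 1.14 for lmo1, -0.58 ± 1.14 for hhex, 0.49 ± 0.92 for mef2cb, 0.41 ± 1.28 for meis1a and 0.07 ± 1.43 for meis1b, each smaller than its standard error, with edgeR adjusted p-values of 1. These p-values do not show that the tumor groups were alike, since 1 standard error spans 0.88 to 1.43 on the log2 scale.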

How the data were processed

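RNA of 6 libraries (strand-specific, paired-end, BGISeq500) was read by the authors with STAR 2.5.2a and featureCounts 1.6.1 on GRCz11, tools and build that the submitters' processing notes name without roles, and DESeq2 1.12.4. The authors deposited whole-number counts per Ensembl transcript for each library, 10138258 to 12655373 in all, with no link to gene names. They also deposited 2 gene tables with the mean of normalized counts (signal) over 4 libraries, and with fold changes and p-values of their own comparison, which were not used. For tumors given a drug or its vehicle, the study's methods state that STAR kept only reads that mapped to a single place in the genome. Such a setting drops reads shared by duplicate genes. Whether it was used for these libraries is not given in the sources used here.

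Gene counts per library were recovered from these means. A mean is a sum of whole counts, each divided by 4 times a library's size factor, written with up to 15 digits. Genes with 1 read gave the size factors, and the 6 whole counts that give both tables' means were solved for each gene. All 23074 of 23074 genes with a mean up to 10000 came out whole (relative tolerance 1e-14), and 154 genes above it were left out of library totals and tests. The control libraries were the pair of size factors shared by both tables (200 of 200 trial genes whole, 31 under the next best choice). Replicates were tied to their labels by 19 genes whose 6 counts equalled those of a transcript, against at most 1 under another order. The recovery was tested on simulated data, where 3791 of 3791 genes were right. The planned design took transcripts where names were missing, so the recovered gene counts replace them in the test, a change made after the files were seen.

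Recovered counts entered edgeR's quasi-likelihood model (edgeR 4.0.16, R 4.3.3; TMM, filterByExpr, 1 fit of 6 libraries and 3 groups, Benjamini-Hochberg adjustment over 14046 genes, called under 0.05). The standard error was the log2 fold change divided by the root of its F statistic. No exact permutation test was run, as 0.333 is the smallest two-sided p that 2 against 2 libraries allow. In simulated data for lck-IRF4 against lck-mCherry (13316 genes), calls were made for 1 of 67 genes with a simulated log2 change of 1, for 2 of 67 with a log2 change of 2, and for 37 of 66 with a log2 change of 4. False calls numbered 7. A floor is 3 counts per library. Intervals are 95% exact binomial. Without molecular identifiers, neither they nor the floors go beyond counting error. The likeness to mef2ca used log2(CPM + 1).

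The text names all 10 members, every gene of the 2 further lists (16 partners, 30 other T-ALL factors) called in a comparison, and the 3 genes most like the member with the highest mean; the other genes of these lists were chosen after their values were seen. Of the cell type markers, those called or defining were named, and every row of a repeated symbol was counted. Thymic epithelium markers summed to 277 and 997 CPM in lck-IRF4, 468 and 510 CPM in lck-IRF4;p53+/- and 207 and 280.5 CPM in lck-mCherry. In lck-IRF4, psmb8a was at 0 and 971 CPM and krt4 at 250 and 24.1 CPM, so single genes made up most of either sum. foxn1 had 4 counts in all libraries together, so the sum does not measure the amount of thymic epithelium. Members and lists were chosen with earlier results of these data known. Alternatives were DESeq2 1.42.0, RLE factors, no filter, the 4 libraries compared, a replicate block and leaving out each library.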

Additional observations from a re-analysis of the deposited data

How the results depend on the processing

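Of 256 results of the 8 tested members under an alternative, 239 kept their side of the threshold, 2 lost and 11 gained a call, 4 (hhex and meis1a with DESeq2) had no adjusted p, and 0 called values changed sign. With no filter on low counts, tal1 gained a call for lck-IRF4 (log2 fold change 3.08) and lck-IRF4;p53+/- (3.13) against lck-mCherry, and mef2ca for lck-IRF4 against lck-mCherry (-3.54) and lck-IRF4;p53+/- against lck-IRF4 (-2.98). DESeq2 gained the same 4 calls (tal1 3.14 and 3.13, mef2ca -3.53 and -3.03), and the fit on the 4 libraries compared gained mef2ca for lck-IRF4 (-3.49). When each library was left out in turn, mef2ca ranged from -4.07 to -2.93 for lck-IRF4 and from -7.55 to -5.90 for lck-IRF4;p53+/- against lck-mCherry. For lck-IRF4 it was called without lck-IRF4;p53+/- replicate 1 (-3.56, adjusted p 0.0193) and without replicate 2 (-3.54, 0.0223). Of uncalled members, lmo2 and meis1b changed sign with single libraries (lmo2 -0.95 to 0.36 and meis1b -2.75 to 2.44 for lck-IRF4, meis1b -1.26 to 2.51 for lck-IRF4;p53+/- against lck-mCherry).

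Counts of genes called were less stable. For lck-IRF4, lck-IRF4;p53+/- (each against lck-mCherry) and lck-IRF4;p53+/- against lck-IRF4 they were 132, 341 and 1. With no filter they were 1721, 1727 and 432, with DESeq2 1387, 1473 and 283, and on the 4 libraries compared 413, 482 and 0. With each library left out they ranged from 0 to 398, from 0 to 371 and from 0 to 2. Without lck-mCherry replicate 1 or 2 all 3 were 0, though 2393 and 2776 genes for lck-IRF4 and 2729 and 2869 for lck-IRF4;p53+/- had an unadjusted p under 0.05. A replicate left alone in its group was assumed to vary like the other groups. Testing the transcripts as deposited, chosen after seeing the data, gave 129, 292 and 1. With DESeq2, no filter, or a control left out, the median log2 fold change of all genes against lck-mCherry lay between 0.115 and 0.224. That was small beside the changes of most members. It was not small beside those of meis1b (-0.42 for lck-IRF4, -0.35 for lck-IRF4;p53+/-) and of lmo2 for lck-IRF4 (-0.43). The cause of these shifts of the median was not tested.

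The labels state nothing that the replicate numbers share. Correlations of the difference between replicates 1 and 2 were 0.0658 for lck-IRF4 with lck-mCherry, 0.257 for lck-IRF4;p53+/- with lck-mCherry and -0.0129 between the tumor groups. These values cannot decide whether libraries of the same number share anything else. With a replicate block, 178, 316 and 0 genes were called, no member changed its call, and of the genes named, the calls of lyz (adjusted p 0.0548) and cpa5 (0.0589) in lck-IRF4;p53+/- against lck-mCherry were lost. Dividing the authors' means of the lck-IRF4;p53+/- table by the median ratio of the tables (1.026) moved 9 of 9 members by less than the spread. Groups of 2 libraries limit every comparison, and members under about 10 counts are limited by depth as well.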
